A study of Sus scrofa with 85 samples.

Results

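Gene expression of the infarcted region 2 days after myocardial infarction was compared with expression before infarction in 8 of the 85 sequenced libraries, 4 of 2 days and 4 of baseline. All were from micro-EMB, very small biopsies of the left ventricular wall taken with a catheter through an artery, and were sequenced for total RNA. They were chosen among the 9 apical libraries of 2 days and the 6 of baseline, as those with a total count of at least 1000000 in which the 10 most counted genes held between 7 and 60% of the counts. The counts of the 10 leading genes were spread more evenly in 6 of the 7 other libraries (1.79 to 5.83% of the counts) and held 74.5% in 1, and these 7 were not used.

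The animals were 3 female farm pigs of mixed Yorkshire and Swedish breed, labelled swine 1640, 1644 and 5385, and no genetic change or age is given. In each, a balloon closed the distal part of the left anterior descending coronary artery and was then deflated, so that the 2 days libraries came from reperfused tissue. Baseline biopsies were taken from the same animals under anaesthesia before the occlusion, are labelled apical, and according to the study were not aimed at any one region. All animals received amiodarone around the occlusion, and after it buprenorphine and meloxicam, the latter an anti-inflammatory drug that only the 2 days group had received by the time of biopsy. The baseline libraries came from swine 1644, 5385, 5385 and 1640, and those of 2 days from swine 1644, 1640, 1640 and 5385. The values of single libraries below follow these 2 orders. Biopsies of 1 animal are not independent animals, so p-values over libraries rest on the spread between biopsies of 3 swine.

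After an infarct, dead cardiomyocytes are cleared by neutrophils and then by macrophages, while resident fibroblasts and endothelial cells begin to divide. Fibroblasts lay down a provisional matrix of fibronectin, tenascin and other matricellular proteins (secreted matrix proteins that signal to cells rather than bear load), which fibrillar collagen later replaces as scar. In surviving muscle, stress proteins and stretch-responsive genes are known to be induced. Bulk RNA cannot tell fewer cells of a type apart from less RNA per cell.

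The total counts ran from 3832952 to 16659110, and the 10 most counted genes held 13.8 to 46.7% of them. The label of heart muscle was checked with 18 sarcomere genes, the parts of the contractile apparatus. Their summed level, in counts per 1000000 after TMM scaling (CPM), was 308, 93970, 79730 and 37290 in the baseline libraries and 77080, 33300, 56210 and 652 at 2 days. Thus the baseline library of swine 1644 and the 2 days library of swine 5385 held little heart muscle RNA, although only 1 and 2 of the 18 genes were at 0 in them. MYH6, a heavy chain of cardiac myosin, was at 19.3 and 108.7 CPM in these 2 libraries and at 20150 CPM or more in the other 6. The study did not keep these 2 libraries, and high expression of collagen genes was among its reasons for leaving out samples. The 2 libraries were also unlike each other.

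In the baseline library of swine 1644, 11 markers of fat, mesothelial and Schwann cells summed to 2527 CPM, with ADIPOQ, the fat hormone adiponectin, at 1736 CPM. The same list summed to 47.3 to 174.8 CPM in the other 7 libraries. Its collagens summed to 45640 CPM, against 13470, 11190 and 16240 CPM in the other baseline libraries and 42050, 32210, 23020 and 35390 CPM at 2 days. The fibroblast markers behaved likewise, with 33150, 4138, 4718 and 10170 CPM at baseline and 32230, 21080, 14460 and 18560 CPM at 2 days. So the 3 baseline libraries with heart muscle were lowest in both lists, and the fourth reached the levels of 2 days. COL1A1 and COL3A1 are the 2 most abundant members of both lists, so the sums of these lists are not independent. The 2 days library of swine 5385 had the highest cell cycle sum. Without these 2 libraries, swine 1640 is the only animal in both groups, and group and swine are largely confounded. Log2 fold changes are therefore given for the 8 libraries and, for most genes and lists, also without these 2.

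**Figure D1:**
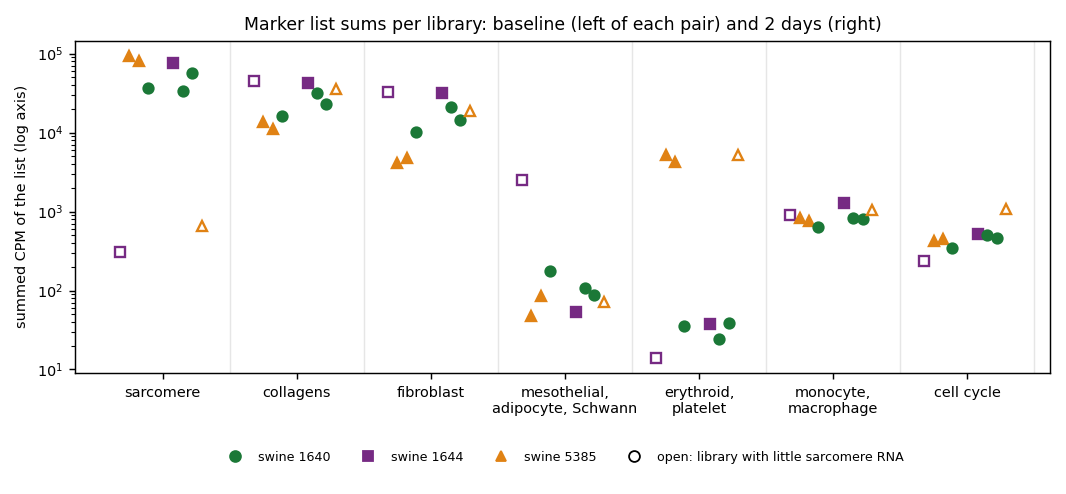
Summed CPM of 7 gene lists on a log axis, 1 point per library, with baseline left and 2 days right in each list, the swine shown by colour and shape, and open points for the 2 libraries with little sarcomere RNA. The 2 open points of the sarcomere list lie at 308 and 652 CPM, and the erythroid list splits by swine 5385 rather than by time.

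The main blood gene differed by animal. HBB, the beta chain of haemoglobin, was at 8.6, 5252, 4229 and 24.3 CPM at baseline and at 28.1, 12.3, 32.2 and 5118 CPM at 2 days. The high values are the 3 libraries of swine 5385. In the 29 apical libraries of all timepoints that met the same limits, HBB ran from 604 to 8378 CPM in 11 libraries of swine 5385, and did not exceed 59.8 CPM in the 18 of the other 2 animals. Its log2 fold change was -0.87 (SE 2.24, edgeR unadjusted p = 0.699) in the 8 libraries, 0.27 with swine as a block, and -7.03 (unadjusted p = 0.0291) without the 2 libraries. The last value contrasts 2 baseline libraries of swine 5385 with none at 2 days.

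No gene passed an adjusted p of 0.05 in edgeR's quasi-likelihood test with all 29 apical libraries in the fit, so 0.0% of the 19233 genes tested were called in either direction. The smallest adjusted p was 0.555. At an unadjusted p under 0.05, 541 genes differed (2.81% of those tested), of which 326 were higher at 2 days (1.7%) and the others lower (1.12%). At that threshold 1.1% were higher without the 2 libraries with little sarcomere RNA and 0.335% lower, and with swine as a block 2.56% and 0.879%, with 0 genes called in either fit. In 348 genes (1.81%) the 4 libraries of 2 days all lay above the 4 of baseline, and in 245 genes (1.27%) all lay below. In 1240 genes (6.45%) each swine was higher at 2 days than at its own baseline, and in 937 (4.87%) lower. For swine 1644 and 5385 that comparison includes a library with little sarcomere RNA. The limma-voom test called 0 genes as well, with 300 higher (1.56%) and 130 lower (0.676%) at an unadjusted p under 0.05.

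DESeq2, the test the study used, called 7 genes higher (0.0364%) and 1 lower (0.0052%) in the same 29 libraries. The higher genes were TNC, CILP, RACGAP1, UHRF1, SMC4, POLE and an unnamed gene, ENSSSCG00000026302, and the lower was the unnamed ENSSSCG00000027903. Of the 7 higher genes, 2 encode secreted matrix proteins and 4 take part in DNA replication, chromatin copying or cell division. Without the 2 libraries with little sarcomere RNA, DESeq2 called CILP alone (0.00523%). In a fit of only the 8 libraries it called 51 genes higher (0.337%) and 9 lower (0.0596%). In a fit of only the 6 libraries the study kept, DESeq2 called 170 of 14930 genes, 47 of them lower (0.315%) and the others higher (0.824%), whereas edgeR called 0 in that fit, with 591 higher (3.96%) and 390 lower (2.61%) at an unadjusted p under 0.05. The higher genes were all also higher in both 2 days biopsies of swine 1640 than in its baseline biopsy, and 80 were higher within each swine. Of the 47 lower genes, 45 were lower within swine 1640 and 21 within each swine. Over all genes tested 28.7% were higher and 34.0% lower within swine 1640, and 6.45% and 4.87% within each swine. The libraries of swine 1640 are all part of the fit that selected these genes. That selection favours the same direction within this animal, so the counts within swine 1640 are not independent support. The counts within each swine include those libraries and also the 2 with little sarcomere RNA, which are outside that fit. They are therefore only partly independent of the selection. The 6 libraries the study kept hold a different mix of swine in each group. HBB was among the 47 lower genes (log2 fold change -7.04, DESeq2 adjusted p = 0.000882).

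TNC and CILP had the largest differences among the matrix genes. TNC (ENSSSCG00000005494) encodes tenascin-C, a matricellular glycoprotein that is scarce in adult heart and known to appear at injury borders. Its level was 19.9, 6.02, 7.52 and 11.6 CPM at baseline and 154.96, 147.1, 380 and 552 CPM at 2 days. Every library of 2 days exceeded every baseline library, and hence also within each swine. The mean was 11.3 ± 6.22 CPM at baseline and 309 ± 195 CPM at 2 days (SD, n = 4 each), a log2 fold change of 4.76 (SE 1.11). The edgeR p of 0.000173 became 0.555 after adjustment over all genes, while DESeq2 gave an adjusted p of 0.00299. Without the 2 libraries with little sarcomere RNA the log2 fold change was 4.74, and with swine as a block 5.13.

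CILP (ENSSSCG00000004928) encodes cartilage intermediate layer protein, a secreted matrix protein made by cardiac fibroblasts. It was at 10.1, 11.6, 18.4 and 9.26 CPM at baseline and at 175.6, 107, 393 and 6.38 CPM at 2 days. The 3 libraries of 2 days with heart muscle lay far above baseline, and the one of swine 5385 lay below it. In that library TNC was at its highest, whereas both genes were high in the other 3 biopsies of 2 days. The log2 fold change was 3.79 (SE 0.87, edgeR adjusted p = 0.555, DESeq2 adjusted p = 0.0117) and 4.11 without the 2 libraries (DESeq2 adjusted p = 0.00666). Both genes lie on chromosome 1, on the minus strand, TNC at chr1:255533235-255630381 and CILP at chr1:163236864-163271222 (Sscrofa11.1).

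The 250 bases before the RefSeq start of each gene, read from Sscrofa11.1, are shown because these are the 2 matrix genes with the strongest differences. The start of TNC is shared by 18 of its 19 RefSeq models (window chr1:255630382-255630631) and that of CILP by 1 of 2 (window chr1:163271223-163271472).
TNC: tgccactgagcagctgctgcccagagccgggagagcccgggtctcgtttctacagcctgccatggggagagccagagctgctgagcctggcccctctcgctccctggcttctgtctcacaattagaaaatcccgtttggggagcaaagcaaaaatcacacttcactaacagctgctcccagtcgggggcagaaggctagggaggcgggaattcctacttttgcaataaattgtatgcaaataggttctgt
CILP: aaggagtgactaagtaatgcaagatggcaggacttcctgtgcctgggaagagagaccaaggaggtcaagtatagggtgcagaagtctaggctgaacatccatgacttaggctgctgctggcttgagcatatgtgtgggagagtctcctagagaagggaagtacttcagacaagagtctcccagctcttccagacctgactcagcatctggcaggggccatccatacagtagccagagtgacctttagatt
The letters of the CCAAT box, which occur in 31.7% of 19531 windows of the same length, were in neither window on either strand. Nor were TTTGAA, the CHR element of cell cycle genes (in 12.2% of windows), CATTCC, which TEAD factors bind (10%), the TATA box letters TATAA (16.8%) or the GC box GGGCGG (47.4%), so neither window has letters in capitals.

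Fibronectin and the collagens depended on the libraries used. FN1, the provisional matrix protein fibronectin, was at 1277, 82.6, 122.3 and 191 CPM at baseline and at 1076, 883, 1233 and 795 CPM at 2 days. All 4 libraries of 2 days exceeded the 3 baseline libraries with heart muscle, and the fourth baseline library was the highest of the 8. The log2 fold change was 1.25 (SE 1.08, edgeR unadjusted p = 0.255), and 3.01 (unadjusted p = 0.0239) without the 2 libraries.

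COL1A1, the main chain of scar collagen, was at 13700, 1218, 1153 and 3808 CPM and at 10610, 7969, 5104 and 9694 CPM. COL3A1, its more elastic partner, was at 11560, 1543, 1744 and 3212 CPM and at 11630, 7145, 5558 and 4119 CPM. Both overlapped between groups through the baseline library of swine 1644, with log2 fold changes of 0.75 and 0.66, and of 1.94 and 1.90 without the 2 libraries. Neither passed an unadjusted p of 0.05 in edgeR in either fit. The ratio of 2 days to baseline within swine 1640 was 1.72 for COL1A1 and 1.98 for COL3A1. COL1A2, COL5A1 and COL6A3 followed the same pattern, with log2 fold changes of 0.61 to 0.86. These 5 collagens are among the genes the study listed for its outlier libraries, and hence chosen on these samples.

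COL8A1, a short-chain collagen of vessel walls and of remodelling matrix, was the only one of the 16 collagens whose groups did not overlap. It was at 23.8, 40.6, 84.6 and 77.5 CPM at baseline and at 181.8, 280, 309 and 211.95 CPM at 2 days. The log2 fold change was 2.12 (SE 0.77, edgeR unadjusted p = 0.0101) and 1.93 without the 2 libraries. Of the 16 collagens, 15 had a higher estimate at 2 days, with a median log2 fold change of 0.66 against 0.01 over all genes tested. At an unadjusted p under 0.05, 1 was higher, as were 1.7% of all genes. In 1.81% of all genes the libraries of 2 days all lay above those of baseline. Without the 2 libraries the median was 1.32. In 12 of 16 all 3 libraries of 2 days then exceeded the 3 of baseline, as in 6.6% of all genes. The baseline library left out had the highest collagen sum of the 8 (45640 CPM). Its removal favours this outcome, so the count is not independent support.

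Of 33 matricellular and glycoprotein genes tested (38 listed), 6 were higher at an unadjusted p under 0.05 (1.7% of all genes) and none lower (1.12%), and the median log2 fold change was 0.74, and 1.14 without the 2 libraries. SPP1, osteopontin, a secreted protein of activated macrophages, was at 2.76, 0.215, 0.836 and 0.746 CPM and at 3.18, 5.36, 32.6 and 6.07 CPM. The groups did not overlap, although the lowest value of 2 days was close to the highest of baseline (log2 fold change 3.31, unadjusted p = 0.00265, and 4.43 without the 2 libraries). THBS4, thrombospondin-4, a matricellular protein of stressed heart and tendon, was at 2.0, 104.3, 98.6 and 76.2 CPM and at 214, 249, 490 and 90.2 CPM. Both libraries with little sarcomere RNA were the lowest of their group, and the other 6 did not overlap (log2 fold change 1.90, SE 0.72, edgeR unadjusted p = 0.0134, and 1.77 without those 2). SPP1 and THBS4 were named after their values had been seen.

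The study listed 6 genes for 2 days, chosen on libraries that are also used here, so their direction is not independent evidence. They are TNC, CILP, FN1, SMC4, FAM111A and ENSSSCG00000014997. All 6 had higher estimates, with a median log2 fold change of 1.23, and 2.47 without the 2 libraries. Over the 8 libraries only TNC and SMC4 did not overlap. FAM111A, a nuclear protease at replication forks, was at 41.8, 15.7, 11.2 and 18.9 CPM and at 48.3, 76.5, 49.3 and 24.0 CPM (log2 fold change 1.17, SE 0.51, edgeR unadjusted p = 0.0273, and 1.92 without the 2 libraries).

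Among matrix-modifying genes, those of the plasminogen system, which dissolves fibrin and activates matrix proteases, had the smallest p-values. PLAT, tissue plasminogen activator, was at 30.6, 8.39, 17.9 and 17.6 CPM at baseline and at 215.1, 121.7, 30.9 and 72.9 CPM at 2 days. PLAUR, the receptor that focuses urokinase on the cell surface, was at 7.91, 2.15, 3.34 and 2.74 CPM and at 9.21, 12.04, 10.4 and 37.0 CPM. Neither gene overlapped between groups, but the closest libraries of PLAT differed by only 30.6 against 30.9 CPM. The log2 fold changes were 2.56 (SE 0.98, edgeR unadjusted p = 0.014) and 2.05 (SE 0.94, unadjusted p = 0.0375), and without the 2 libraries 3.06 (unadjusted p = 0.015) and 1.93 (unadjusted p = 0.0835). LOXL2, an enzyme that crosslinks collagen, was at 125, 41.9, 44.5 and 52.2 CPM and at 107.8, 102, 104.3 and 124.2 CPM. Its levels at 2 days were uniform and exceeded all baseline libraries but that of swine 1644 (log2 fold change 0.73, and 1.18 without the 2 libraries). Of the 27 genes of this list tested, 3 were higher at an unadjusted p under 0.05 (1.7% of all genes) and none lower (1.12%).

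TGFBR2, the type II receptor for TGF-beta, was at 230, 128, 159 and 171.8 CPM and at 333, 401, 221 and 304 CPM. A single pair of libraries overlapped (log2 fold change 0.87, SE 0.38, edgeR unadjusted p = 0.0304, and 1.05 without the 2 libraries). The 20 genes of TGF-beta signalling as a list had a median of 0.13 (0.33 without the 2 libraries). At an unadjusted p under 0.05, 1 was higher (1.7% of all genes) and 1 lower (1.12%). The lowest log2 fold change of the list was -5.84. Without the 2 libraries it was -1.21, and 0 were lower at that threshold.

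Of the 27 lists of pathways and cell types, cell cycle genes had the highest median in the 8 libraries. Of 22 tested, 17 were higher at an unadjusted p under 0.05 (1.7% of all genes) and none lower, and the median log2 fold change was 1.64. In 14 of 22 the groups did not overlap, against 1.81% of all genes, and in 18 of 22 each swine was higher at 2 days, against 6.45%. The summed level of the list was 236, 430, 449 and 346 CPM at baseline and 527, 512, 467 and 1079 CPM at 2 days. The groups did not overlap, and the library of swine 5385 with little sarcomere RNA stood far above the rest. Without the 2 libraries the median was 1.02, and 5 of 22 were higher at an unadjusted p under 0.05 (1.1% of all genes). In 14 of 22 the 3 libraries of 2 days then exceeded the 3 of baseline, where 6.6% of all genes did. The cell cycle median was then below those of the fibroblast markers (1.61), cytokines (1.45), collagens (1.32), complement (1.21), matricellular (1.14) and macrophage (1.12) genes. The baseline library left out was the highest of the 8 in fibroblast markers and collagens, which favours higher medians for these 2 lists.

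RACGAP1 (ENSSSCG00000000217), a regulator of the cleavage furrow in cytokinesis, had the smallest p of the higher genes. It was at 4.37, 1.51, 1.34 and 2.14 CPM at baseline and at 8.41, 9.06, 9.2 and 24.3 CPM at 2 days. No library of 2 days fell below any baseline library. The log2 fold change was 2.41 (SE 0.52, edgeR p = 7.53e-05, adjusted p = 0.555, DESeq2 adjusted p = 0.0278) and 2.39 without the 2 libraries. The gene lies on chromosome 5 at chr5:15894314-15943619 on the plus strand. The 250 bases before the start shared by 4 of its 5 RefSeq models (chr5:15904366-15904615) are given for comparison with those of the 2 matrix genes, a choice made after its values had been seen.
RACGAP1: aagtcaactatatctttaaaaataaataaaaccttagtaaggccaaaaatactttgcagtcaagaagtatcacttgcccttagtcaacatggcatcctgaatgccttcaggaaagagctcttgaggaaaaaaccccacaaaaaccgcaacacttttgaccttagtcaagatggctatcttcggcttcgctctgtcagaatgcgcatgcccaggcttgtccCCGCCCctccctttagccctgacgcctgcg
Capitals mark the single match to the same letters, the GC box on the minus strand, 30 bases before the start.

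UHRF1, which copies DNA methylation marks behind the replication fork, was at 8.67, 7.31, 8.02 and 5.52 CPM and at 24.1, 20.03, 23.0 and 120 CPM. POLE, the catalytic subunit of DNA polymerase epsilon, was at 6.06, 4.52, 4.35 and 3.73 CPM and at 12.5, 16.7, 13.2 and 87.2 CPM. Both were narrow within each group apart from the library of swine 5385, whose level was far above the other libraries of 2 days, and both groups were fully separated. Their log2 fold changes were 2.66 and 2.78 in the 8 libraries, and 1.69 and 1.75 without the 2 libraries. SMC4, a condensin subunit that compacts chromosomes, was at 31.8, 21.3, 29.4 and 18.8 CPM and at 45.7, 43.9, 39.3 and 105.7 CPM (log2 fold change 1.21, SE 0.30, DESeq2 adjusted p = 0.0338, and 0.89 without the 2 libraries). TK1, thymidine kinase of the S phase, was at 9.06, 7.74, 9.36 and 9.85 CPM and at 17.3, 36.5, 17.7 and 52.5 CPM. For TK1 the baseline spread was small against the difference (log2 fold change 1.77, SE 0.43, edgeR adjusted p = 0.733, and 1.40 without the 2 libraries).

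The same separation was seen for CCNF, KIF15, INCENP, MCM3, CENPF and TOP2A, with log2 fold changes of 1.74 to 2.58. MYBL2, a transcription factor of dividing cells, differed from these. Its level was 11.05, 4.52, 10.7 and 7.71 CPM at baseline and 13.3, 21.8, 10.3 and 105.7 CPM at 2 days, so that most of its log2 fold change of 2.14 came from swine 5385, and it was 0.98 without the 2 libraries.

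**Figure D2:**
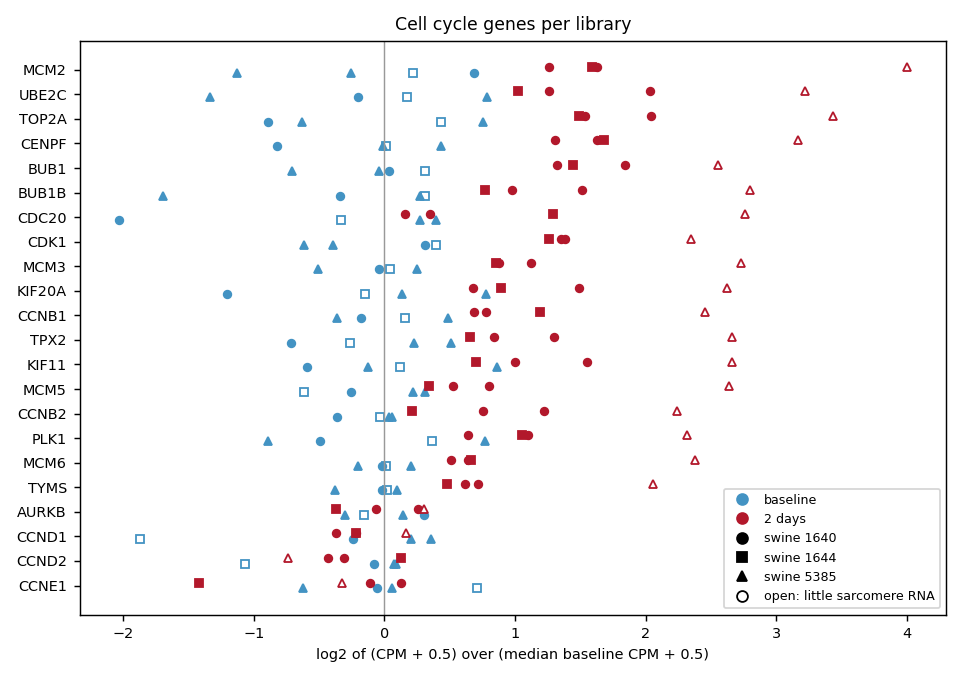
Each row is 1 of 22 cell cycle genes, with the log2 ratio of its CPM to the median baseline CPM (0.5 CPM added to both) in 4 baseline (blue) and 4 libraries of 2 days (red), and open points for the libraries with little sarcomere RNA. In 14 rows every red point lies right of every blue one, and the open red triangle of swine 5385 is the farthest right in most.

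Macrophage genes had higher estimates of modest size. All 22 tested had a higher estimate at 2 days (median log2 fold change 0.71, and 1.12 without the 2 libraries), 4 had an unadjusted p under 0.05 (1.7% of all genes), and in 14 each swine was higher (6.45%). MSR1, a scavenger receptor of macrophages, was at 3.07, 5.59, 4.68 and 5.87 CPM and at 17.3, 8.23, 21.7 and 35.5 CPM (log2 fold change 2.10, SE 0.53, edgeR adjusted p = 0.757, and 1.54 without the 2 libraries). LAPTM5, a lysosomal membrane protein of blood-derived cells, was at 19.1, 10.1, 11.9 and 7.41 CPM and at 35.7, 25.5, 22.8 and 60.7 CPM (log2 fold change 1.57, SE 0.50, adjusted p = 0.9996, and 1.52 without the 2 libraries). Both were separated between groups. The most abundant members were not: CSF1R, the receptor for the macrophage growth factor, had a log2 fold change of 0.13, and CD74, a chaperone of antigen-presenting molecules, one of 0.06. The summed list was at 910, 840, 754 and 636 CPM at baseline and at 1292, 821, 815 and 1043 CPM at 2 days, so the groups overlapped.

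Among neutrophil genes, the 8 tested had a median log2 fold change of 1.25, and 0.75 without the 2 libraries. In the 8 libraries 7 had a higher and 1 a lower estimate. At an unadjusted p under 0.05, 1 was higher (1.7% of all genes), and 0 without the 2 libraries. S100A8, one of the most abundant neutrophil transcripts, did not exceed 0.407 CPM in any of the 8 libraries and was not tested. The 18 lymphocyte genes tested had a median of 0.31, and -0.05 without the 2 libraries.

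Complement and chemokine genes included some of the higher levels of 2 days. C7, a component of the membrane attack complex that is made by fibroblasts, was at 26.9, 1.94, 3.51 and 31.0 CPM and at 410, 184, 34.4 and 43.7 CPM. The groups did not overlap, but the closest libraries were at 31.0 and 34.4 CPM (log2 fold change 3.38, SE 1.01, edgeR unadjusted p = 0.00222, and 4.06 without the 2 libraries). CCL21, a chemokine of lymphatic endothelium that attracts T and dendritic cells, was at 16.7, 13.5, 3.84 and 26.6 CPM and at 172.7, 126.95, 49.1 and 15.5 CPM. Like CILP, it was not higher in the 2 days library of swine 5385, which lay inside the baseline range (log2 fold change 2.58, SE 0.71, edgeR adjusted p = 0.902, and 2.97 without the 2 libraries). CCL2, which recruits monocytes, was at 8.06, 6.02, 4.18 and 7.32 CPM and at 18.6, 22.5, 17.7 and 36.7 CPM. Its groups were separated (log2 fold change 1.88, SE 0.95, unadjusted p = 0.0565, and 1.73 without the 2 libraries). IL10, an anti-inflammatory cytokine, was at 0.23 CPM in 1 baseline library and 0 in 3, and at 0.635, 0.715, 0.814 and 3.04 CPM at 2 days, too few counts for a fold change. The 15 interferon response genes tested all had higher estimates, with a median of 0.34 and none at an unadjusted p under 0.05, and 13 of 15 without the 2 libraries, with a median of 0.29.

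Of 23 genes of heat shock and the unfolded protein response tested, which help proteins to fold, 22 had a higher estimate at 2 days, with a median log2 fold change of 0.62, and 13 were higher within each swine (6.45% of all genes). HSPA5, the central chaperone of the unfolded protein response, was at 57.4, 85.1, 95.4 and 79.6 CPM and at 242, 99.2, 170 and 200 CPM. The mean was 79.4 ± 16.1 CPM at baseline and 177.9 ± 60.1 CPM at 2 days (SD, n = 4 each), with a log2 fold change of 1.16 (SE 0.49) and an edgeR unadjusted p of 0.0244. CALR, the calcium-binding chaperone calreticulin, was at 110, 135.5, 105 and 107 CPM and at 230, 153.1, 176.9 and 287 CPM. MANF, a secreted protein induced by stress of this organelle, was at 5.76, 11.2, 9.69 and 10.8 CPM and at 25.2, 13.4, 19.2 and 20.3 CPM. All 3 genes were separated between groups and hence higher within each swine, with log2 fold changes of 0.89 for CALR and 1.06 for MANF. The values of HSPA5, CALR and MANF without the 2 libraries were 0.97, 0.69 and 0.87, none at an unadjusted p under 0.05. In the 8 libraries 8 of the 23 were higher at that threshold, against 1.7% of all genes (HSPA5, HSP90B1, CALR, PDIA3, PDIA4, PDIA6, XBP1 and MANF) and none lower. This fell to 1 of 23 without the 2 libraries (1.1% of all genes), where the median was 0.64.

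HMOX1, the enzyme that breaks down haem, was at 11.05, 8.39, 5.01 and 5.32 CPM and at 49.7, 21.2, 13.5 and 27.9 CPM. The groups did not overlap, so each swine was also higher at 2 days (log2 fold change 1.91, SE 0.78, edgeR unadjusted p = 0.0202, and 2.18 without the 2 libraries). TPM4, a tropomyosin of the non-muscle cytoskeleton, was at 218, 206.8, 171.5 and 146.4 CPM and at 298, 282, 337 and 1035 CPM (log2 fold change 1.39, SE 0.61, unadjusted p = 0.0304). This became 0.73 (edgeR unadjusted p = 0.22) without the 2 days library of swine 5385, 0.81 without the 2 libraries and 0.43 with the block as well. ACTB, cytoplasmic actin, was at 646, 582, 475 and 435 CPM and at 838, 661, 667 and 2247 CPM. Both were separated, by a wide gap only in the library of swine 5385. VIM, the intermediate filament vimentin of fibroblasts, endothelium and immune cells, was at 824, 235, 259 and 236 CPM and at 1114, 565, 434 and 1440 CPM, with overlap only at the baseline library of swine 1644. CGNL1, a junction protein of endothelium, was at 62.8, 105.8, 96.9 and 154.6 CPM and at 210.8, 278, 186.8 and 273 CPM (log2 fold change 1.18, SE 0.41, unadjusted p = 0.00806, and 0.92 without the 2 libraries, unadjusted p = 0.0626). The 17 endothelial genes had a median of 0.26, and of 0.038 without the 2 libraries.

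**Figure D3:**
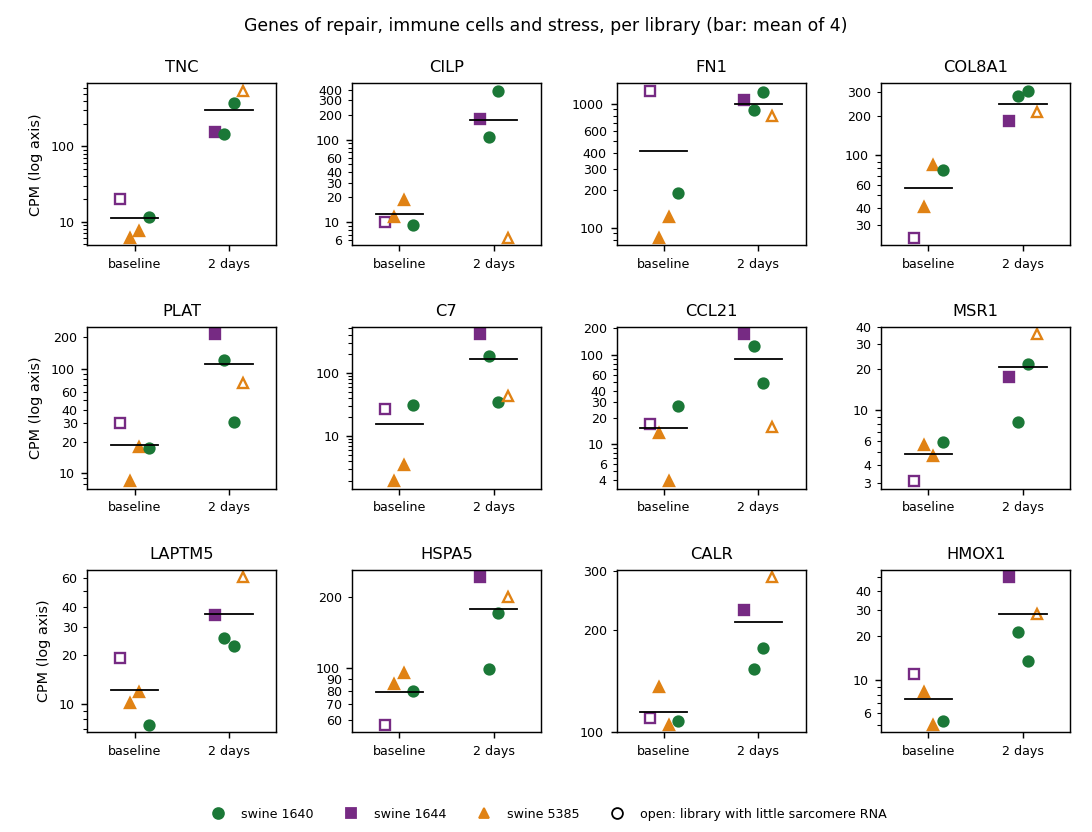
CPM of 12 genes on log axes in the 4 baseline and 4 libraries of 2 days, with the swine by colour and shape, open points for libraries with little sarcomere RNA, and a bar at the mean of 4. For TNC the 4 points of 2 days (147.1 to 552 CPM) lie above all baseline points, while CILP and CCL21 each have 1 open point of 2 days at the baseline level.

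Heart muscle genes varied more between biopsies than between timepoints. Of 17 sarcomere genes tested none had an unadjusted p under 0.05, with a median log2 fold change of -0.17, of -0.18 without the 2 libraries and of 0.50 with swine as a block. MYH6 was at 19.3, 58680, 47370 and 21970 CPM and at 46480, 20150, 35090 and 108.7 CPM (log2 fold change -0.33, SE 1.44). RYR2, the calcium release channel, was at 93.6, 9678, 9691 and 3901 CPM and at 5854, 3229, 4726 and 54.1 CPM (log2 fold change -0.75, SE 1.17). Levels of both were low in the 2 libraries with little sarcomere RNA, and within swine 1640 the ratio of 2 days to baseline was 1.26 for MYH6 and 1.02 for RYR2. The SE of MYH6 is large enough that a change of several-fold in either direction was not detectable.

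ANKRD2, an ankyrin repeat protein of the sarcomere that responds to stretch, was an exception among muscle stress genes. It was at 0.998, 3.44, 3.51 and 4.23 CPM and at 6.67, 14.1, 18.6 and 7.29 CPM, with no overlap (log2 fold change 1.94, SE 0.89, edgeR unadjusted p = 0.0363, and 1.81 without the 2 libraries, unadjusted p = 0.0864). Of the other 8 genes of this list, none had an unadjusted p under 0.05.

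Fatty acid oxidation genes had lower estimates that did not pass the test. All 26 fatty acid oxidation genes tested had a lower estimate (median log2 fold change -0.54), and 4 had an unadjusted p under 0.05 (1.12% of all genes lower). ACSL1, which activates long-chain fatty acids, was at 407, 376, 317 and 153.1 CPM and at 237, 79.3, 154.7 and 36.1 CPM. LPL, the lipase that frees fatty acids from lipoproteins, was at 1538, 253, 344 and 141 CPM and at 359, 118.8, 254 and 6.38 CPM. Both overlapped between groups (log2 fold changes -1.30 and -1.62, unadjusted p = 0.0258 and 0.104), and the lowest value of each was in the library of swine 5385. Without the 2 libraries the list median was -0.27 with none at that threshold. With swine as a block it was -0.39 in the 8 libraries, with 20 of 26 lower, and 0.19 without the 2 libraries. The sign of the other metabolic lists depended on the fit. The 31 nuclear genes of oxidative phosphorylation had a median of -0.09, of -0.07 without the 2 libraries and of 0.50 with swine as a block, where 27 had a higher estimate. For the 21 genes of the citric acid cycle the medians were -0.20, -0.11 and 0.17, and for the 13 mitochondrially encoded genes 0.08, -0.23 and 0.35.

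Many of the leading lower genes were high in the baseline library of swine 1644. Without it the share of genes lower at an unadjusted p under 0.05 went from 1.12% to 0.651%, and without the 2 days library of swine 5385 to 0.642%. Among the 15 with the smallest p are several genes known for fat storage and lipid metabolism. PC, pyruvate carboxylase, was at 585, 20.4, 14.4 and 14.6 CPM at baseline and at 13.0, 10.7, 10.9 and 10.9 CPM at 2 days. DGAT2, the last step of triglyceride synthesis, was at 179.3, 3.87, 3.84 and 0.348 CPM and at 0.476, 0.238, 0.733 and 0 CPM. PPARG, the master transcription factor of fat cells, was at 480, 41.9, 29.1 and 32.8 CPM and at 25.6, 24.9, 32.7 and 24.6 CPM. In all 3, the first baseline library exceeded the others more than 10-fold, and the log2 fold changes of -3.80, -6.77 and -2.44 became -0.51, -2.38 and -0.32 without the 2 libraries. PRKAR2B, KLB, RETSAT, SIK2, PNPLA2, PON3, ADIPOR2 and ALDH1L1 likewise had their highest level in that library. The list of fat, mesothelial and Schwann cell markers had 3 of 11 lower at an unadjusted p under 0.05 (1.12% of all genes), and 0 without the 2 libraries (0.335%).

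A few lower genes did not rest on that library alone. ENSSSCG00000027903 was the only lower gene that DESeq2 called in the fit of 29 libraries (adjusted p = 0.0121). It was at 85.0, 29.7, 38.9 and 19.5 CPM and at 9.05, 4.41, 12.3 and 7.59 CPM. Its groups were separated, so each swine was also lower at 2 days. The log2 fold change was -2.37 (SE 0.51) and -1.77 without the 2 libraries. EEPD1, a nuclease-domain protein, was at 355, 95.2, 84.9 and 73.5 CPM and at 37.6, 67.5, 52.8 and 50.1 CPM. IMPA2, an inositol monophosphatase, was at 288, 37.8, 38.4 and 32.3 CPM and at 17.8, 28.5, 16.4 and 8.81 CPM. Both were separated and hence lower within each swine, with log2 fold changes of -1.55 and -2.47. Without the 2 libraries these were -0.68 and -0.79, and neither had an unadjusted p under 0.05.

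**Figure D4:**
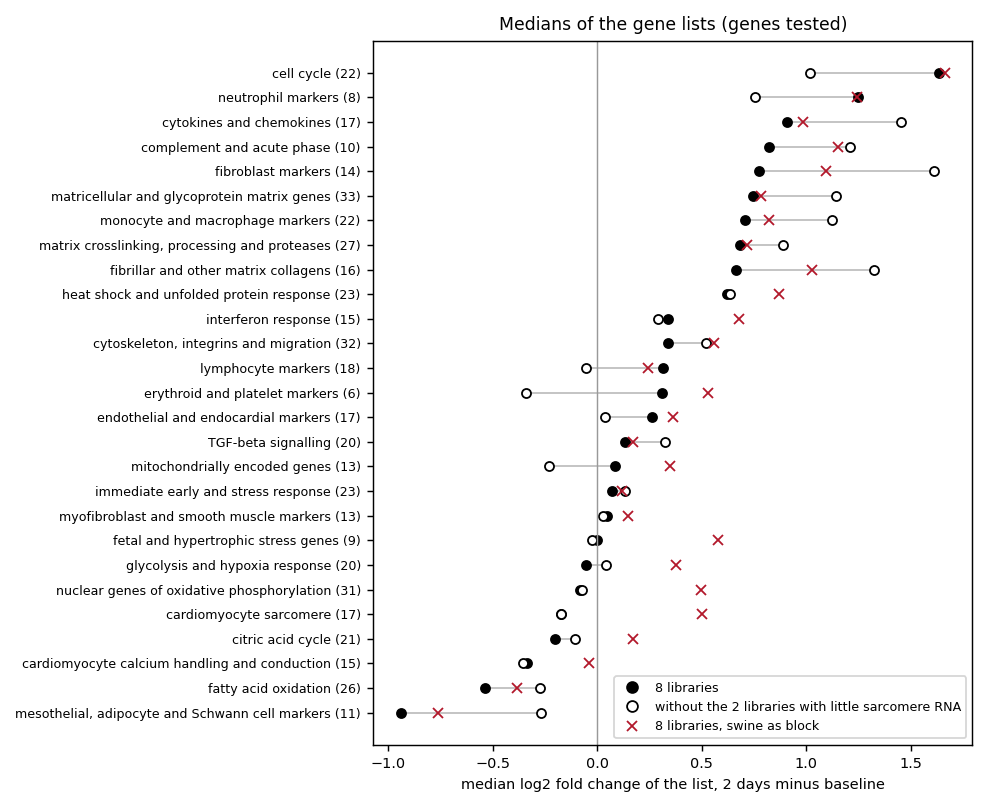
Median log2 fold change (2 days minus baseline) of 27 gene lists, with the number of genes tested in brackets, for the 8 libraries (filled), without the 2 libraries with little sarcomere RNA (open) and with swine as a block (cross). Cell cycle lies highest at 1.64 and moves to 1.02 without the 2 libraries, while the fibroblast list moves from 0.78 to 1.61 and the fat and mesothelial list from -0.94 to -0.27.

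Levels at 2 days were set beside the other timepoints of the infarcted region, which share the fit. For TNC, the lowest, median and highest CPM were 5.57, 15.1 and 96.8 in 5 libraries of 0–1 h, 16.8, 71.6 and 274 in 9 of 1–3 h, and 9.85, 24.6 and 289 in 7 of 14 days. Libraries of 1–3 h and 14 days thus reached into the range of 2 days for TNC. For CILP they were 13.0, 60.1 and 75.8, then 2.83, 10.9 and 42.6, and 7.91, 44.1 and 82.2, so that the 3 high libraries of 2 days (107 CPM and above) exceeded every library of the other timepoints. UHRF1 did not exceed 21.8 CPM at any of these timepoints, and at 2 days was at 20.03 CPM or more. CCL21 did not exceed 36.1 CPM at these timepoints, below 3 of the 4 libraries of 2 days.

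In the test of 2 days against 14 days, 1 gene was called (0.0052%). An unadjusted p under 0.05 was reached by 566 genes (2.94%), again a smaller share than a fraction of 0.05. The called gene, the unnamed ENSSSCG00000036779, was at 18.4, 38.3, 20.8 and 1366 CPM at 2 days, so it rests on the library of swine 5385, without which 0 genes were called. The log2 fold changes of 2 days minus 14 days were 2.28 for UHRF1 (edgeR adjusted p = 0.241), 2.24 for TNC, 2.11 for CILP, 2.07 for CCL21 and 2.49 for HMOX1, none called. HMOX1 was at 3.19 to 6.34 CPM in the 7 libraries of 14 days, below every library of 2 days, and at 9.55 to 281 CPM at 1–3 h. For COL1A1 the estimate was -0.03 (SE 1.12) and for COL3A1 -0.04 (SE 0.90), and SEs of this size cannot show that the 2 timepoints were alike.

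**Figure D5:**
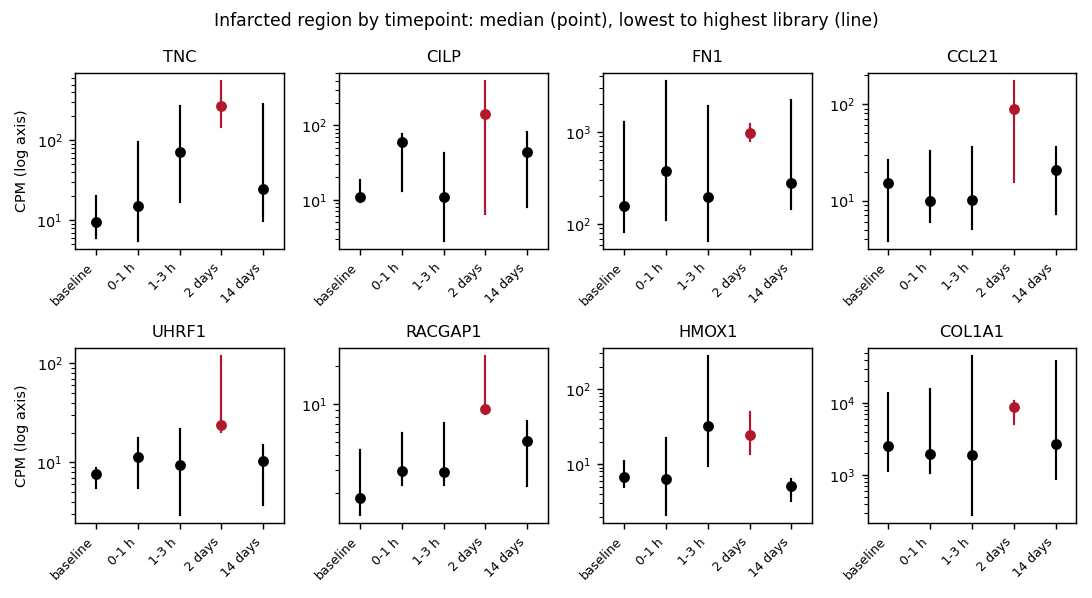
Median (point) and lowest to highest library (line) of CPM on log axes for 8 genes in the infarcted region at baseline, 0–1 h, 1–3 h, 2 days (red) and 14 days. UHRF1 and RACGAP1 have their highest median at 2 days, HMOX1 is high from 1–3 h to 2 days, and the COL1A1 lines overlap at all timepoints.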

How the data were processed

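Micro-EMB and blood of 3 swine were sequenced by the study from libraries made with a stranded kit (SMARTer Pico). The authors mapped reads to the pig genome with STAR, assigned them to genes with featureCounts and deposited raw counts of 31907 genes in 85 libraries. The columns carry the mark of strand-blind counting, so reads of genes that overlap on opposite strands cannot be told apart. Batches of RNA isolation were not used here. Results for some genes are not reported here. A table of identifiers gave symbols to 15029 genes.

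Groups were taken from the sample labels, and the libraries that the study kept from its supplementary data. The 29 apical libraries within the limits on total count and leading genes were fitted together by edgeR 4.0.16 (TMM, quasi-likelihood) in R 4.3.3, on the 19233 genes that reached 1 CPM in 4 or more libraries, with a coefficient for each timepoint and no other term. P-values were adjusted by Benjamini-Hochberg, with 0.05 as the threshold. DESeq2 1.42.0 and limma 3.58.1 (voom) were alternatives. CPM values are scaled by TMM factors, and log2 fold changes are those of the fit. The biological coefficient of variation was 0.69. Duplicate reads had not been merged, and no interval of counting error was used.

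Gene lists and comparisons were chosen with earlier results of these data known. Genes were named by rule: the 15 with the smallest p in each direction, in each list the 2 with the smallest p and the 2 most abundant, and the genes the study listed. SPP1, THBS4, LOXL2, TOP2A, CCL2, HSPA5, S100A8 and the chaperones listed together were added after their values had been seen. Promoter windows of the lower genes PC and DGAT2 were not shown, since each gene has only 1 RefSeq model, although the CILP start also rests on 1. Those windows held 6 and 3 matches to the same letters.

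Libraries with the same swine number come from the same animal, so the numbers pair them. Between libraries of different timepoints, deviations from the group means had a mean correlation of 0.11 over 110 pairs of the same swine, against -0.05 over pairs of different swine. Among the 8 libraries these were -0.16 (5 pairs) and 0.08 (11 pairs). In all, 25 alternatives were run, 21 planned and 4 chosen after seeing the data.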

Additional observations from a re-analysis of the deposited data

Results flagged for a closer look

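Some values lay far from the other 3 libraries of their group by Dixon's test, which flags about 1 in 20 groups by chance. Nearly all were in the 2 libraries with little sarcomere RNA, and the part of tissue composition in them was not tested.

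In the baseline library of swine 1644, the far values were high for PC (585 CPM), PRKAR2B (538 CPM), KLB (146.6 CPM), RETSAT (550 CPM), IMPA2 (288 CPM), SIK2 (592 CPM), PNPLA2 (219 CPM), PPARG (480 CPM), ALDH1L1 (26.7 CPM), EEPD1 (355 CPM) and ADIPOQ (1736 CPM). They were also high for the matrix and fibroblast genes COL6A3 (2163 CPM) and VIM (824 CPM), for the summed matricellular genes (8484 CPM) and for the summed matrix-processing genes (2512 CPM). Low values were found there for THBS4 (2.0 CPM), MYH6 (19.3 CPM), ANKRD2 (0.998 CPM), the summed sarcomere genes (308 CPM) and the summed fetal and hypertrophic stress genes (26.4 CPM). IL10 was at 0.23 CPM in it and at 0 in the other baseline libraries.

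In the 2 days library of swine 5385, cell division genes were far above the others, with SMC4 at 105.7 CPM, RACGAP1 at 24.3 CPM, UHRF1 at 120 CPM, POLE at 87.2 CPM, MCM3 at 46.8 CPM and the summed cell cycle list at 1079 CPM. TPM4 (1035 CPM), IL10 (3.04 CPM), the unnamed ENSSSCG00000036779 (1366 CPM), HBB (5118 CPM) and the summed erythroid and platelet markers (5142 CPM) were far above as well. This was the only 2 days library of swine 5385 in the comparison, and its HBB lay within the range of that animal's 11 apical libraries (604 to 8378 CPM). MYH6 (108.7 CPM), RYR2 (54.1 CPM) and the summed fetal and hypertrophic stress genes (93.5 CPM) were far below.

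Outside these 2 libraries, PPARG was high in 1 library of 2 days of swine 1640 (32.7 CPM) and PC was high in the 2 days library of swine 1644 (13.0 CPM).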

How the results depend on the processing

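In edgeR 0 genes were called in every alternative, while DESeq2 called 8 genes in the 29 libraries, 60 in a fit of the 8 libraries, 170 in the 6 the study kept and 1 without the 2 libraries with little sarcomere RNA. Of the 68 genes named here with a fit these were 8, 16, 33 and 1. The share of tested genes that were higher at an unadjusted p under 0.05, 1.7%, was 3.57% in the 8 libraries alone, 3.96% in the 6, 4.21% and 4.19% with DESeq2 in the 6 and the 8, 1.1% without the 2 libraries and 0.592% with all sequenced apical libraries. It ran from 0.747% to 2.24% when 1 library was left out, lowest without the 2 days library of swine 5385. The share lower, 1.12%, was 0.676% with limma-voom, 1.73% in the 8, 2.61% in the 6, 3.17% and 2.55% with DESeq2 in the 6 and the 8, 2.15% with counts summed per swine, 0.335% without the 2 libraries, 0.701% without them and with the block, and 5.05% with all sequenced libraries. Leaving out 1 library gave 0.642% to 1.52%, with 0.651% without the baseline library of swine 1644 and 0.642% without the 2 days library of swine 5385. With all sequenced libraries, 10 of 28 lists (the 27 and the 4 genes the study plotted or named) had a median above 0, against 20.

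The pairing by swine, as a block, gave 2.56% higher and 0.879% lower at an unadjusted p under 0.05, and 0 called. It turned the log2 fold change of MYH6 to 0.77, and to 0.76 without the 2 libraries, where LPL was at 0.62. It turned HBB to 0.27 (0.25 with counts summed per swine).

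For 2 days against 14 days, the single call was lost without a filter, with all sequenced libraries, without the 2 libraries (also with the block), with the block, with counts summed per swine and without mitochondrial and ribosomal genes. These all gave 0 genes, and leaving out 1 library gave 0 to 2.

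The collagen median was 0.094 with all sequenced libraries, 1.32 without the 2 libraries, 1.29 in the 6 (DESeq2 1.29, and 1.28 without the 2), and 0.42 to 1.40 when 1 library was left out, highest without the baseline library of swine 1644. The matricellular median was 0.23, 1.14, 1.11, 1.10 and 1.10 in these settings, and 0.58 to 1.06. The cell cycle median was 0.96, 1.02, 1.02, 1.02 and 1.0, 0.92 without the 2 libraries and with the block, and 1.0 to 1.83 when 1 library was left out, lowest without the 2 days library of swine 5385.

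Of the 68 genes, 53 kept their direction in all alternatives run and 15 did not. Inclusion of all sequenced libraries gave log2 fold changes of -0.95 for ENSSSCG00000014997, -0.061 for TGFBR2, -2.25 for LAPTM5, -3.37 for TPM4, -3.32 for ACTB, -0.98 for CSF1R and -0.65 for CD74. CD74 was also at -0.013 in the 6 libraries, -0.020 with DESeq2 in the 6 and -0.029 with DESeq2 without the 2. When 1 library was left out, the ranges were -0.80 to 0.13 for MYH6, -0.13 to 0.43 for CSF1R, -0.027 to 0.19 for CD74, -3.39 to 0.22 for PRKAR2B, -3.63 to 0.01 for KLB, -2.65 to 0.083 for SIK2, -10.37 to 2.08 for ADIPOQ and -0.0021 to 4.26 for ENSSSCG00000036779. SIK2 was at 0.010 and ADIPOQ at 2.39 (2.72 with DESeq2, 2.12 with the block) without the 2 libraries. The cause of these turns was not tested.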
